A study of Mus musculus with 12 samples.

Results

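The genes described here encode the chains of collagens. They were taken as every gene whose symbol in the array's annotation is Col, digits, the letter a and digits, from probe sets with a single symbol. The rule found 36 genes on 58 probe sets, of 12393 genes on 20380 such probe sets. RNA was measured on Affymetrix Mouse Genome 430A 2.0 arrays, on which a probe set is a group of short probes against 1 transcript. The cells were mouse embryonic fibroblasts (MEFs), primary mesenchymal cells prepared from embryos, treated with one of the chemical combinations SGCF and 6TCF. The sources used here do not list the components of either. Groups were days 0, 5 and 10 of SGCF and days 0, 5 and 10 of 6TCF, with 2 arrays each and 12 arrays in all. Per the labels, all cells were plated in medium with 10% fetal bovine serum and moved the next day to a medium with 15% serum and basic fibroblast growth factor at 40 ng/ml. The labels name no untreated or vehicle arrays for days 5 and 10, so every change from day 0 also holds time in culture and may hold the change of medium. The labels give no mouse strain or embryo age. They do not say whether the arrays of a group came from separate embryos or cultures, so p-values may measure only technical spread. The labels name the combination for the day 0 arrays too and do not say whether those cells had met it.

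Collagens are triple helices of 3 chains, and each chain has its own gene. Fibrillar collagens (types I, II, III, V and XI) form the banded fibrils of connective tissue, with types V and XI as minor chains that start fibrils and limit their width. Network-forming type IV makes the sheet of basement membranes. FACIT collagens sit on fibril surfaces, short-chain collagens (types VIII and X) build open lattices, type VI forms beaded filaments around cells, and multiplexins (types XV and XVIII) lie in or near basement membranes. Fibroblasts make most of the type I, III, V and VI collagen of soft tissue. Type II and type XI chains are best known from cartilage.

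Promoter sequence is given for 6 members, chosen after their values were seen because they moved in different directions in the same cells. Each is the 250 bases before the gene's annotated start in RefSeq, build GRCm38.p6, written 5′ to 3′ on the gene's own strand. Capitals mark the letters of a TATA box (TATAAA, or TTTATA on the other strand), of a CCAAT box (CCAAT, or ATTGG when reversed) or of a GC box (GGGCGG, or CCGCCC when reversed). No marked words overlap. Col11a1 and Col8a1 had among the largest falls under both combinations. The Col11a1 window lies at chr3:114030290-114030539 on the plus strand and that of Col8a1 at chr16:57754738-57754987 on the minus strand.
Col11a1: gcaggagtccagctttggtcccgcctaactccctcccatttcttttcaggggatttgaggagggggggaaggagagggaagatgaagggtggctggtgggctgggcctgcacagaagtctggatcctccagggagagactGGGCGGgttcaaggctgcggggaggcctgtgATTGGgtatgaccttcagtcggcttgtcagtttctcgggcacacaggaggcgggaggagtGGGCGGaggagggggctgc
Col8a1: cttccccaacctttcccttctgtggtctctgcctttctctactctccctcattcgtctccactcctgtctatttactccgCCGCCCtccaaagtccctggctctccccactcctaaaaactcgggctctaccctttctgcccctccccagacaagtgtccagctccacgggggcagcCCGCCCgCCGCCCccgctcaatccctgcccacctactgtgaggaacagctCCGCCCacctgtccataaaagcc
Col18a1 and Col15a1, the multiplexin chains, were higher at day 10 under both combinations. Their windows lie at chr10:77166531-77166780 on the minus strand and chr4:47207762-47208011 on the plus strand.
Col18a1: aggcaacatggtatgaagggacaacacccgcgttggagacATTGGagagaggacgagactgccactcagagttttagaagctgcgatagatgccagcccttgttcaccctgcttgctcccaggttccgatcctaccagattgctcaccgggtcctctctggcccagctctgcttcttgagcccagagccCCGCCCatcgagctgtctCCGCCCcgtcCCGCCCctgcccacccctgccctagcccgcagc
Col15a1: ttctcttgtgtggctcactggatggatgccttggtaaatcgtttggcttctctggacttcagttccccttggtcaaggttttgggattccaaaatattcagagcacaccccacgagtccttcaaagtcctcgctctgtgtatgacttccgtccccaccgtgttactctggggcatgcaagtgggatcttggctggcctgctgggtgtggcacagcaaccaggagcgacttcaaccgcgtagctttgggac
Col6a1 and Col6a2, neighbours on chromosome 10 that encode chains of type VI, rose under 6TCF. Their windows lie at chr10:76726045-76726294 and chr10:76623631-76623880, both on the minus strand.
Col6a1: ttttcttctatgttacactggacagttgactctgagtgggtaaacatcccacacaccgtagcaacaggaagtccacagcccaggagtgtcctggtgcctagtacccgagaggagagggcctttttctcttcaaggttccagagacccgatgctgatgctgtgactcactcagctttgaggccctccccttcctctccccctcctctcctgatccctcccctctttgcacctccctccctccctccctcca
Col6a2: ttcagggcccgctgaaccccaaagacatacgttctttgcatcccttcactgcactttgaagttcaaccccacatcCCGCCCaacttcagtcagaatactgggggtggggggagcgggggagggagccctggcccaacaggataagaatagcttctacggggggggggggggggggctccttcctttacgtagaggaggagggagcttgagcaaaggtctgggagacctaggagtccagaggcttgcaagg
The Col8a1 window held 4 GC boxes and the Col18a1 window 3. Motifs were not tested against the direction of change. The Col11a1 window held 2 GC boxes and 1 reverse CCAAT box, the Col18a1 window also 1 reverse CCAAT box, and the Col6a2 window 1 GC box. No letters of these motifs were in the windows of Col15a1 and Col6a1. Of 32851 promoter windows of this length in the table, 12.4% held a TATA box, 33.8% a CCAAT box and 32.7% a GC box. Windows were found for 27 of the 36 members, 30 windows in all, of which 16.7%, 40.0% and 53.3% held these motifs in that order. A match to such short words is a description of the sequence, not a binding site.

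The deposited intensities of the SGCF arrays were dimmer (array medians 60.9 to 86.2) than those of the 6TCF arrays (102.4 to 142), so between the combinations a processing batch and the treatment cannot be told apart. All levels below are log2(intensity + 16) after quantile normalization, and on this scale the 2 arrays of each group had r = 0.985 to 0.996 over genes. Probe sets differ in how strongly they bind, so levels are compared between arrays and never between genes. In the SGCF day 0 pair the collagen genes disagreed more than in any other pair. Replicate 1 was above replicate 2 for 28 of 33 tested members, with a median gap of 0.43 and a largest gap of 1.04 (Col6a3), against medians of 0.07 to 0.20 in the other 5 pairs. Over all genes the gap in that pair was 0.23, and replicate 1 was above replicate 2 in 51.8%. Collagen calls that were lost without one of these arrays, and the counts, are given with the value without it. The signal of the actin control probe sets near the 3′ end minus that near the 5′ end, a sign of RNA integrity, averaged 0.31, 0.44 and 0.54 over days 0, 5 and 10 of SGCF and 0.34, 0.80 and 1.04 over those of 6TCF. Markers of macrophages, cells that fibroblast cultures can hold, had a log2 summed level of 13.0 to 13.15, 9.60 to 9.94 and 9.56 to 9.79 over days 0, 5 and 10 of SGCF. All 15 were above the low-signal limit given below at day 0 of both combinations, and 4 and 7 were at or below it at days 5 and 10 of SGCF and 5 and 2 at days 5 and 10 of 6TCF (Ptprc, the pan-leukocyte CD45 gene, averaged 6.75, 4.69 and 4.73 over the days of SGCF and 5.65, 4.68 and 4.80 over those of 6TCF). The same markers stood at 11.85 to 11.93, 10.07 to 10.27 and 10.91 to 11.0 over the days of 6TCF. Against day 0, 14 were called lower and 1 higher at each later day of SGCF. Under 6TCF it was 13 and 1 at day 5 and 11 and 1 at day 10, and 8 were higher and 0 lower at day 10 than at day 5. Cd14 averaged 7.28, 7.87 and 8.11 over the days of SGCF and 6.69, 7.47 and 8.04 over those of 6TCF, and Csf1r 8.21, 8.38 and 8.16 over those of 6TCF. The part of RNA integrity or of macrophages in the changes below was not tested. In bulk RNA, fewer cells of a type and less RNA per cell cannot be told apart. The 12 fibroblast markers, a list without collagens, summed to 15.32 to 15.66 on every array, but its genes moved in both directions. In the comparisons with day 0, 5 were called higher and 3 lower at day 5 of SGCF, 7 and 2 at day 10 of SGCF, 7 and 3 at day 5 of 6TCF, and 6 and 4 at day 10 of 6TCF. Dpt (dermatopontin) averaged 10.87 at day 10 of 6TCF and 7.21 at day 0, and Pdgfrb (a platelet-derived growth factor receptor) 9.36 and 10.97.

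By the probe set of highest mean, 33 of the 36 collagen genes reached the low-signal limit (a highest group mean above log2 5.27). They were tested with limma among 10674 genes. A gene was called at a Benjamini-Hochberg adjusted p under 0.05. By day 5 of SGCF, 15 of the 33 were called lower and 2 higher, while 12.6% and 12.8% of all tested genes were called lower and higher and 25.4% in either direction. The collagen genes had a median log2 change of -0.38, against 0.02 over all genes. Without SGCF day 0 replicate 1 the counts were 12 lower and 7 higher, and without replicate 2 they were 14 and 1. By day 10 of SGCF, 11 were called lower and 8 higher, with 18.2% and 20.5% of all genes (38.6% in either direction) and a median of -0.23 against 0.03. Those counts were 8 and 8 without SGCF day 0 replicate 1 and 13 and 3 without replicate 2.

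Between day 10 and day 5 of SGCF, 9 collagen genes were called higher and 2 lower. Without either SGCF day 0 array the counts were 14 and 2. Of all genes 11.6% were higher and 9.89% lower, 21.5% in all, and the medians were 0.29 for the collagen genes and -0.0039 for all genes. By day 5 of 6TCF, 11 members were called lower and 9 higher (12.4% and 15.1% of all genes, 27.6% in either direction). By day 10 of 6TCF, 14 were lower and 7 higher (19.9% and 23.2%, 43.1% in all). Their medians were -0.11 and -0.20, against -0.0005 and -0.0102 over all genes. Between day 10 and day 5 of 6TCF, 6 were called lower and 1 higher (6.99% and 8.60%, 15.6% in all), and the median was -0.18. Leaving out 6TCF day 5 replicate 1 or day 10 replicate 1 left 3 collagen calls in that last comparison.

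**Figure D1:**
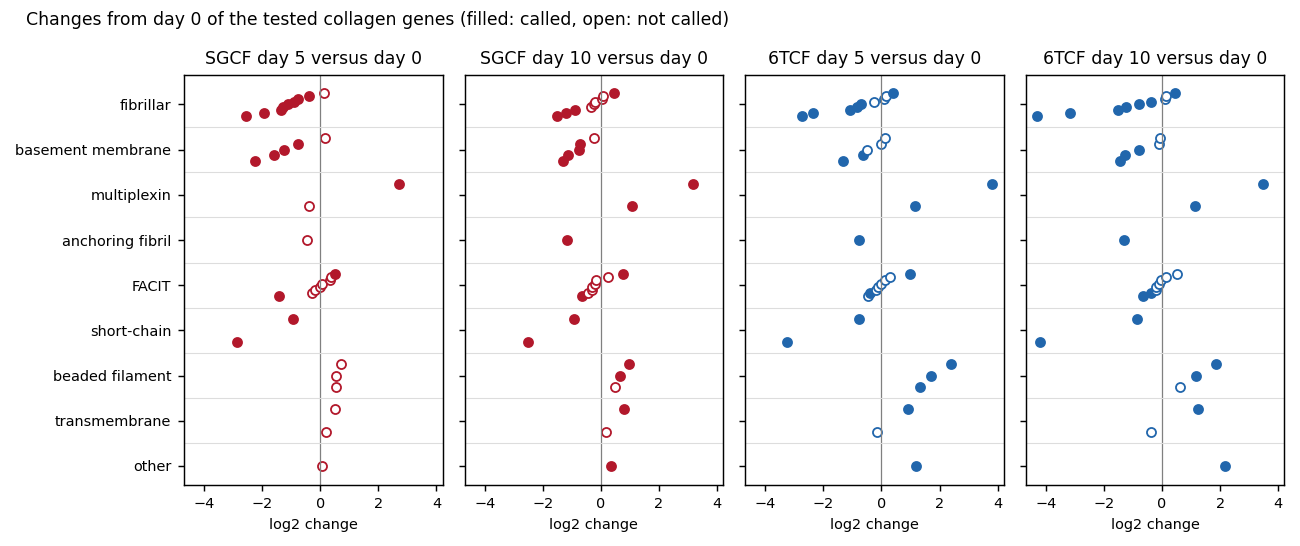
Log2 change from day 0 of each of the 33 tested collagen genes, on the horizontal axis, by class and in 4 panels for days 5 and 10 of SGCF (red) and of 6TCF (blue). Filled points passed the limma test and open points did not. Fibrillar and basement membrane points lie mostly left of 0, beaded filament and multiplexin points mostly right of it, and the 2 short-chain genes lie left of 0 in every panel.

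Chains of type I collagen, the main fibril protein of skin, tendon and bone, were lower than at day 0 at several later times. Col1a1 encodes its alpha 1 chain and stood at 11.41 and 11.21 at day 0, 9.96 and 10.12 at day 5 and 10.14 and 10.68 at day 10 of SGCF. On the 6TCF arrays it stood at 11.77 and 11.84 at day 0, 11.13 and 11.11 at day 5 and 10.55 and 10.58 at day 10. Every later array lay below both day 0 arrays of its combination. The change was -1.27 ± 0.16 by day 5 and -0.90 ± 0.16 by day 10 of SGCF (log2, ± SE, limma adjusted p = 0.000113 and 0.000911). Under 6TCF it was -0.69 ± 0.16 and -1.25 ± 0.16 (adjusted p = 0.00741 and 7.9e-05). Without 6TCF day 0 replicate 2 the day 5 change of -0.66 was not called. With the day 0 arrays of both combinations as 1 baseline it was -0.44 and not called (adjusted p = 0.114).

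Col1a2, the alpha 2 chain of type I, had levels of 14.10 and 14.04 at day 0, 13.24 and 13.35 at day 5 and 13.83 and 13.85 at day 10 of SGCF, and 14.0 and 13.97 at day 0, 13.70 and 13.79 at day 5 and 13.55 and 13.66 at day 10 of 6TCF. It fell by day 5 of SGCF (-0.77 ± 0.11, adjusted p = 0.000284) and rose again to day 10 (0.54 ± 0.11 against day 5, adjusted p = 0.00437), when its difference from day 0 of -0.23 was not called. Under 6TCF it was lower by day 10 (-0.38 ± 0.11, adjusted p = 0.0162), but scaling to the 75th percentile gave -0.13 and no call. That last call was also lost without 6TCF day 0 replicate 1 (-0.36) or 2 (-0.39) or day 10 replicate 1 (-0.32). A dimmer probe set of each type I gene changed more than the bright one at day 5 of SGCF, -2.17 for Col1a1 and -1.33 for Col1a2, with the same sign.

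Col3a1 encodes the homotrimer of type III collagen, which mixes with type I in extensible tissues, and its changes were called in both directions. It stood at 13.14 and 13.11 at day 0, 12.62 and 12.84 at day 5 and 13.45 and 13.70 at day 10 of SGCF. Under 6TCF it stood at 13.06 and 13.01 at day 0, 13.33 and 13.56 at day 5 and 13.46 and 13.48 at day 10. Both SGCF day 5 arrays were below, and both SGCF day 10 arrays above, those of day 0, while all 6TCF arrays of days 5 and 10 were above those of day 0. On the probe set used, the changes from day 0 were small, at -0.39 and 0.45 by days 5 and 10 of SGCF and 0.41 and 0.43 of 6TCF (SE 0.13, adjusted p = 0.0481, 0.0195, 0.0387 and 0.0199). Leaving out 1 array at a time removed these calls in 9, 2, 5 and 4 of 12 fits, and the values in those fits had lows and highs of -0.51 and -0.29, 0.31 and 0.44, 0.29 and 0.45, and 0.42 and 0.47. The rise between day 10 and day 5 of SGCF (0.84 ± 0.13, adjusted p = 0.000847) was kept in all 12. It was 1.49 as the mean of both probe sets of the gene, because the dimmer one changed more. From day 0 the dimmer probe set changed by -1.30 and 0.83 by days 5 and 10 of SGCF and by 0.70 and 0.78 of 6TCF.

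Type V chains, which join type I fibrils and set their diameter, fell by day 5 of SGCF and were higher again at day 10. Col5a2, the alpha 2 chain, stood at 13.40 and 12.89 at day 0, 11.09 and 11.32 at day 5 and 12.93 and 12.94 at day 10 of SGCF. Its levels were 13.23 and 13.36 at day 0, 12.38 and 12.50 at day 5 and 12.51 and 12.46 at day 10 of 6TCF. The 2 SGCF day 5 arrays were the lowest of the 12, and the SGCF day 10 arrays lay between those of day 0. The change was -1.94 ± 0.16 by day 5 of SGCF (adjusted p = 3.27e-06), a 3.84-fold fall, and 1.73 ± 0.16 from there to day 10 (adjusted p = 2.24e-05), a 3.31-fold rise. Its day 10 difference from day 0 was -0.21 and not called, and -0.48 and called without SGCF day 0 replicate 2. Under 6TCF the gene was lower at days 5 and 10 (-0.85 and -0.81, SE 0.16, adjusted p = 0.00185 and 0.00159), with a difference of 0.04 between those days. On a dimmer probe set the 6TCF changes were smaller, at -0.52 and -0.36, and those of SGCF were -2.26 and 0.09.

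Col5a1, the alpha 1 chain of type V, stood at 12.14 and 11.38 at day 0, 10.15 and 10.68 at day 5 and 11.46 and 11.40 at day 10 of SGCF. On the arrays of 6TCF it stood at 11.71 and 11.70 at day 0, 10.56 and 10.68 at day 5 and 10.15 and 10.24 at day 10. It fell by day 5 in both (-1.34 ± 0.22 under SGCF and -1.09 ± 0.22 under 6TCF, adjusted p = 0.000819 and 0.00326). By day 10 it had risen again under SGCF (1.01 ± 0.22 against day 5, adjusted p = 0.00668, not called without SGCF day 5 replicate 1, at 0.74). Its day 10 value against day 0 was -0.33 and not called, and -0.71 and called without SGCF day 0 replicate 2. Its day 10 arrays of 6TCF were the lowest of that combination, -1.51 ± 0.22 from day 0 (adjusted p = 0.000204). On its dimmer probe sets the 6TCF changes were smaller, at -0.80 and -0.58 by day 5 and -0.95 and -0.86 by day 10. Col5a3, another type V chain, lay at 6.64 to 8.04 over the arrays and was lower at day 5 of SGCF (-0.91) and higher at day 10 than at day 5 (0.98). The first of these was not called without SGCF day 0 replicate 1 (-0.53) or day 5 replicate 2 (-0.79), and the second without day 5 replicate 2 (0.86) or day 10 replicate 1 (0.77). Under 6TCF it had 0.14 and 0.14, neither called.

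Of the fibrillar genes, Col11a1 had the largest fall in each comparison with day 0 under SGCF and 6TCF. This gene, the alpha 1 chain of type XI, stood at 9.58 and 8.86 at day 0, 6.61 and 6.74 at day 5 and 7.50 and 7.89 at day 10 of SGCF. Its levels on the 6TCF arrays were 10.13 and 10.07 at day 0, 7.14 and 7.61 at day 5 and 5.61 and 6.0 at day 10. No array of day 5 or 10 overlapped with day 0, and the order of days 5 and 10 was opposite in the 2 combinations. Under SGCF it fell 5.85-fold by day 5 (-2.55 ± 0.24, adjusted p = 8.97e-06) and then regained 1.02 ± 0.24 (adjusted p = 0.00922, not called without SGCF day 5 replicate 1, at 0.96). Under 6TCF it fell 6.59-fold by day 5 (-2.72 ± 0.24) and 19.6-fold by day 10 (-4.29 ± 0.24, adjusted p = 5.48e-06 and 8.97e-08). The fall between these days was called as well (-1.57, adjusted p = 0.00214). Its day 10 levels there were near the low-signal limit, and with 64 in place of 16 as the constant added before the log these last values were -3.47 from day 0 and -0.96 from day 5. Its other probe set changed by -2.70 and -1.58 under SGCF and -2.86 and -4.36 under 6TCF.

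Col2a1, the only chain of type II collagen, stood at 6.82 and 6.64 at day 0, 5.73 and 5.53 at day 5 and 5.70 and 5.36 at day 10 of SGCF. It started higher on the 6TCF arrays, at 8.28 and 8.33 at day 0, 6.02 and 5.84 at day 5 and 5.12 and 5.16 at day 10. All later arrays were below all day 0 arrays. The change was -1.10 ± 0.14 and -1.20 ± 0.14 under SGCF (adjusted p = 0.000129 and 4.29e-05) and -2.38 ± 0.14 and -3.16 ± 0.14 under 6TCF (adjusted p = 2.45e-07 and 1.66e-08). Its day 10 levels under 6TCF were below the low-signal limit, so the size depends on the constant added before the log: -3.89 with 1 and -2.13 with 64 in place of 16. The 6TCF day 5 value was -1.74 with 64. With the day 0 arrays of both combinations as 1 baseline, its changes were -1.89 and -1.99 under SGCF and -1.59 and -2.38 under 6TCF. Col11a2, the alpha 2 chain of type XI, was called in no comparison, with changes from day 0 of 0.04 to 0.11 and levels of 5.24 to 5.86 over the arrays. Of 14 cartilage and bone markers other than collagens, 8 were below the limit in every group (Acan, Matn1, Hapln1, Cnmd, Ibsp, Alpl, Dmp1 and Phex). The list's log2 summed level was 8.26 to 8.81 over the 12 arrays. Of its 6 tested genes, 2 were called higher and 1 lower at day 5 of SGCF, 1 and 0 at day 10 of SGCF, 1 and 0 at day 5 of 6TCF, and 0 and 2 at day 10 of 6TCF. Their part was not tested.

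As a class, 8 of 9 tested fibrillar chains were called lower at day 5 of SGCF and 0 higher, and 6 of the 9 were called higher at day 10 than at day 5 with 0 lower. Of all genes, 12.6% were called lower and 12.8% higher at day 5 of SGCF, and 11.6% higher and 9.89% lower in the later step. Without SGCF day 0 replicate 1 or 2 the 8 became 6 or 7, and the 6 of the later step stayed 6 in both fits. At day 10 of SGCF 3 of the 9 were called lower and 1 higher than at day 0, against 18.2% and 20.5% of all genes. Under 6TCF, 5 were lower at day 5 and 6 at day 10, with Col3a1 the only one called higher at either day. Of all genes, 12.4% and 19.9% were lower and 15.1% and 23.2% higher at those days. Between day 10 and day 5 of 6TCF 0 fibrillar chains were higher and 3 lower (Col1a1, Col2a1 and Col11a1), against 8.6% and 6.99% of all genes. The call of Col1a1 there (-0.56) was lost in 6 of 12 fits that left out an array, at -0.57 to -0.54. That of Col2a1 (-0.79) was lost without 6TCF day 5 replicate 1 (-0.70) or day 10 replicate 1 (-0.76). The class median was -1.10, -0.23 and 0.84 for day 5, day 10 and the step between them under SGCF, and -0.69, -0.81 and -0.14 under 6TCF.

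**Figure D2:**
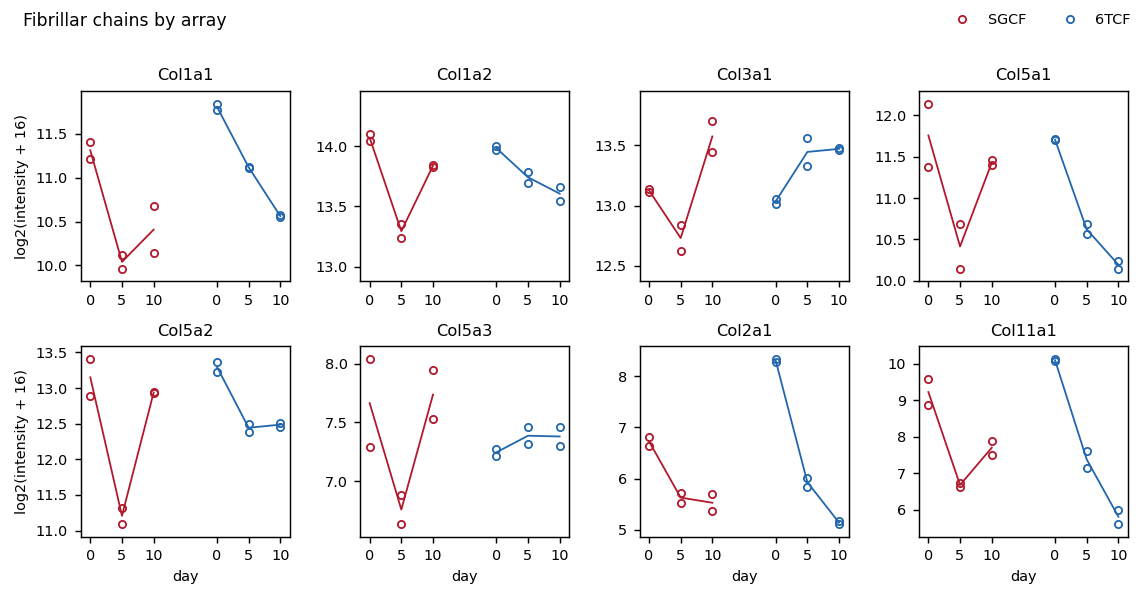
Levels of 8 fibrillar chains, as log2(intensity + 16), on each array (open circles) at days 0, 5 and 10 of SGCF (red, left) and 6TCF (blue, right). Lines join the means of the 2 arrays, and the vertical scale differs between panels. Col5a2 shows the fall and return under SGCF (11.09 and 11.32 at day 5, 12.93 and 12.94 at day 10), and Col11a1 the opposite courses of the combinations after day 5.

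Several type IV chains of basement membranes were lower after day 0 under both combinations. Col4a1 and Col4a2 are neighbouring genes on chromosome 8 whose chains form the most widespread type IV heterotrimer. Col4a1 stood at 11.83 and 11.20 at day 0, 9.77 and 10.05 at day 5 and 10.44 and 10.34 at day 10 of SGCF. Under 6TCF it stood at 12.35 and 12.33 at day 0, 11.74 and 11.65 at day 5 and 10.78 and 10.99 at day 10. Under SGCF the lowest pair was that of day 5 and under 6TCF that of day 10. It changed by -1.60 ± 0.18 and -1.12 ± 0.18 under SGCF (adjusted p = 5.41e-05 and 0.000536) and by -0.64 ± 0.18 and -1.45 ± 0.18 under 6TCF (adjusted p = 0.0227 and 7.03e-05). The 6TCF day 5 value was not called when any 1 of the 6TCF arrays of days 0 and 5 was left out (-0.68 to -0.60), nor with the day 0 arrays of both combinations as 1 baseline (-0.23, adjusted p = 0.579).

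Col4a2 moved in the same direction as Col4a1 in every comparison with day 0. It stood at 10.91 and 10.12 at day 0, 9.13 and 9.41 at day 5 and 9.78 and 9.74 at day 10 of SGCF, where the day 0 pair stood well apart. Its 6TCF levels were 11.22 and 11.21 at day 0, 10.79 and 10.65 at day 5 and 9.77 and 10.12 at day 10. The changes were -1.24 ± 0.22 and -0.75 ± 0.22 under SGCF (adjusted p = 0.00123 and 0.0167), and the day 10 change was -0.36 and not called without SGCF day 0 replicate 1, and -1.15 and called without replicate 2. It was also not called without SGCF day 10 replicate 1 (-0.78) or 2 (-0.73). Under 6TCF only the day 10 change was called (-1.27 ± 0.22, adjusted p = 0.00061), the day 5 value being -0.49.

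Col4a5, an X-linked type IV chain, stood at 9.27 and 9.76 at day 0, 7.0 and 7.50 at day 5 and 8.11 and 8.30 at day 10 of SGCF. Under 6TCF its levels were 10.12 and 10.23 at day 0, 8.68 and 9.03 at day 5 and 9.49 and 9.30 at day 10. Day 5 was the lowest day under both combinations, without overlap with days 0 or 10. It fell by day 5 (-2.26 ± 0.20 under SGCF and -1.32 ± 0.20 under 6TCF, adjusted p = 6.87e-06 and 0.000459) and remained lower at day 10 (-1.31 and -0.78, adjusted p = 0.00034 and 0.00851). The 6TCF day 10 value lost its call without 6TCF day 0 replicate 2 (-0.73) or day 10 replicate 2 (-0.69), and with both combinations' day 0 arrays as 1 baseline (-0.45). The gain between days 5 and 10 of SGCF (0.95) was not called without SGCF day 5 replicate 1 (0.70) or day 10 replicate 2 (0.86). Col4a6, its neighbour on the X chromosome, at 4.83 to 6.87 over the arrays, was lower under SGCF (-0.76 at day 5 and -0.72 at day 10) but not in its other probe set (-0.02 and -0.05). Without SGCF day 0 replicate 1 its values were -0.47 and -0.43 and were not called, and the day 5 value was also lost without SGCF day 5 replicate 2 (-0.70) and the day 10 value without day 10 replicate 2 (-0.59). Of the 5 tested type IV genes, 4 were called lower and 0 higher at each later day of SGCF. Without SGCF day 0 replicate 1 this was 3 at day 5 and 2 at day 10, and without replicate 2 it was 4 at both. Under 6TCF 2 were lower at day 5 and 3 at day 10, with 0 higher. Of all genes, 12.6% and 18.2% were lower and 12.8% and 20.5% higher at days 5 and 10 of SGCF. At the same days of 6TCF 12.4% and 19.9% were lower and 15.1% and 23.2% higher. Endothelial markers, from cells that also make type IV collagen, summed to 8.89 to 9.61 over the arrays. Of 12, 4 (Pecam1, Tek, Tie1 and Vwf) were below the limit in every group, and each group had 5 to 7 at or below it. Their part in these changes was not tested.

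Col7a1 encodes the anchoring fibrils that tie epithelial basement membranes to the tissue beneath. It stood at 7.96 and 7.77 at day 0, 7.21 and 7.61 at day 5 and 6.57 and 6.81 at day 10 of SGCF and declined without overlap between day 10 and the earlier days. Its 6TCF levels were 7.97 and 8.21 at day 0, 7.57 and 7.10 at day 5 and 6.83 and 6.74 at day 10. By day 10 it was lower under both, -1.18 ± 0.18 under SGCF and -1.31 ± 0.18 under 6TCF (adjusted p = 0.000374 and 0.000158). At day 5 only the 6TCF value was called (-0.76), and not without 6TCF day 0 replicate 2 (-0.63) or day 5 replicate 2 (-0.52). The step between day 10 and day 5 of SGCF (-0.72) was not called without SGCF day 5 replicate 2 (-0.52) or day 10 replicate 1 (-0.60). Keratinocyte markers, from a cell type that makes type VII collagen, summed to 9.19 to 10.43 over the arrays. Of 11, 1 (Krt1) was below the limit in every group, and each group had 2 to 5 at or below it. Their part was not tested.

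Of 8 tested FACIT genes, 1 was called higher and 1 lower at day 5 of each combination, 12.5% each way, against 12.8% and 12.6% of all genes under SGCF and 15.1% and 12.4% under 6TCF. At day 10 it was 1 and 1 under SGCF (20.5% and 18.2% of all genes) and 0 and 2 under 6TCF (23.2% and 19.9%). The SGCF counts were 2 and 1 at day 5 and 1 and 0 at day 10 without SGCF day 0 replicate 1, and 0 and 1 and 1 and 1 without replicate 2. Col12a1, a fibril-surface chain of tendon and skin, stood at 9.11 and 8.55 at day 0, 7.13 and 7.68 at day 5 and 8.29 and 8.73 at day 10 of SGCF. Under 6TCF it stood at 8.66 and 8.64 at day 0, 8.14 and 8.19 at day 5 and 7.93 and 8.08 at day 10. Its SGCF day 5 arrays were the lowest of all, as for Col5a2. It fell by day 5 of SGCF (-1.43 ± 0.22, adjusted p = 0.000427) and rose from there to day 10 (1.11 ± 0.22, adjusted p = 0.0032). The 6TCF day 10 value (-0.65 ± 0.22, adjusted p = 0.0299) was not called when any 1 of the 6TCF arrays of days 0 and 10 was left out (-0.72 to -0.57). Col14a1, which binds fibrils through the proteoglycan decorin, at 5.65 to 7.35 over the arrays, was higher at day 5 of 6TCF (0.97, adjusted p = 0.00255) and lower at day 10 of SGCF (-0.66). The SGCF change was not called without SGCF day 0 replicate 1 (-0.45) or either SGCF day 10 array (-0.71 and -0.62). Col16a1, found with fibrils and with microfibrils, at 8.13 to 9.28, was higher at day 10 of SGCF (0.77 ± 0.17, adjusted p = 0.00362), and that value was 1.08 without SGCF day 0 replicate 1 and 0.46 without replicate 2, both called. At day 5 its 0.35 was called only without replicate 1, at 0.66. Col9a3, a chain of cartilage type IX, at 5.74 to 6.63, was higher at day 5 of SGCF (0.50), but not without SGCF day 0 replicate 2 (0.44) or day 5 replicate 1 (0.27). Col19a1, a rare FACIT chain at 4.81 to 5.44 over the arrays, passed the low-signal limit only through its day 0 means. Its lower calls under 6TCF (-0.41 and -0.39), counted above, are therefore values near the limit, and were lost in 9 and 4 of 12 fits that left out an array, at -0.52 to -0.28 and -0.48 to -0.26.

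**Figure D3:**
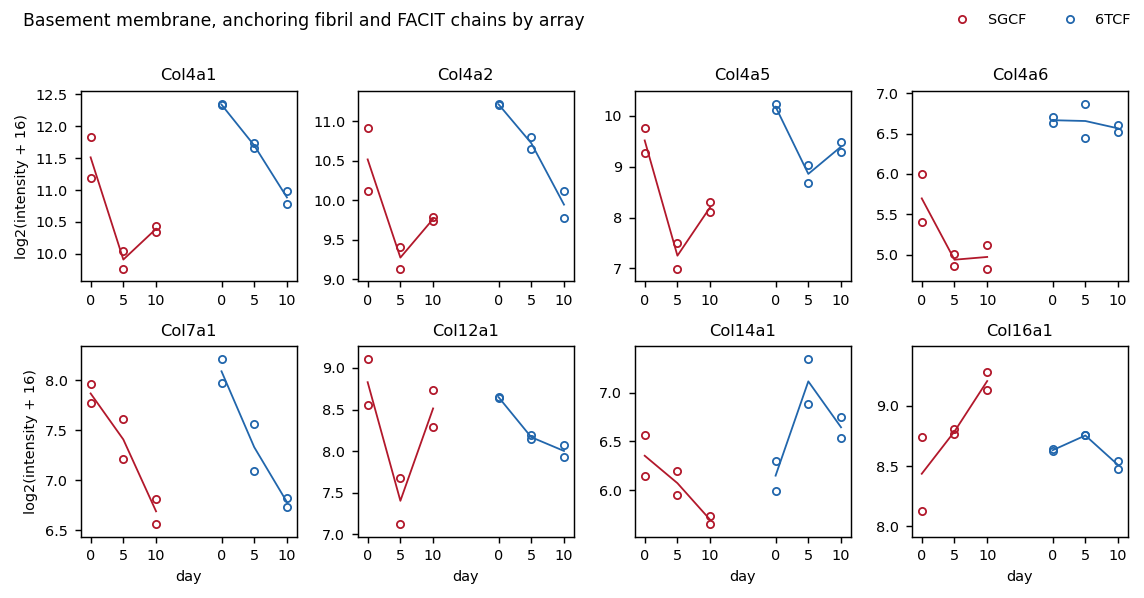
Levels of 4 type IV chains, Col7a1 and 3 FACIT chains, as log2(intensity + 16), on each array (open circles) at days 0, 5 and 10 of SGCF (red, left) and 6TCF (blue, right), with lines through the means and a vertical scale that differs between panels. Col4a1 and Col4a2 have their lowest pair at day 5 under SGCF and at day 10 under 6TCF, and Col4a6 differs between the combinations at day 0.

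The 3 type VI chains rose by day 5 of 6TCF. These chains assemble into beaded filaments that link cells to the fibrils around them. Col6a2, the alpha 2 chain, stood at 11.93 and 11.31 at day 0, 12.10 and 12.25 at day 5 and 12.27 and 11.92 at day 10 of SGCF. On the 6TCF arrays it stood at 10.33 and 10.02 at day 0, 12.55 and 12.59 at day 5 and 11.94 and 12.12 at day 10. The 6TCF day 0 arrays were the lowest of the 12, and all later 6TCF arrays lay within the range of the SGCF arrays or above it. It rose 5.26-fold by day 5 of 6TCF (2.39 ± 0.20, adjusted p = 3.56e-06) and was 3.61-fold above day 0 at day 10 (1.85 ± 0.20, adjusted p = 1.75e-05). With the day 0 arrays of both combinations as 1 baseline these were 1.67 and 1.13, still called. Under SGCF it had 0.55 and 0.47, not called with all arrays, and 0.86 and 0.78, both called, without SGCF day 0 replicate 1.

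Col6a1, the alpha 1 chain next to Col6a2 on chromosome 10, stood at 11.14 and 10.49 at day 0, 11.20 and 11.54 at day 5 and 11.57 and 11.35 at day 10 of SGCF. Under 6TCF it stood at 10.30 and 10.19 at day 0, 12.02 and 11.91 at day 5 and 11.36 and 11.48 at day 10. Its 6TCF day 0 arrays were again the lowest. It rose by 1.72 ± 0.19 and 1.17 ± 0.19 under 6TCF (adjusted p = 4.07e-05 and 0.000484). Under SGCF the day 10 value was called (0.64) but was 0.31 and not called without SGCF day 0 replicate 2, 0.97 and called without replicate 1, and 0.54 and not called without day 10 replicate 1. The day 5 value of 0.55 was not called with all arrays and was 0.88 and called without SGCF day 0 replicate 1.

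Col6a3, the alpha 3 chain, whose released end fragment is known as endotrophin, stood at 11.96 and 10.92 at day 0, 12.01 and 12.27 at day 5 and 12.45 and 12.38 at day 10 of SGCF. Its day 0 arrays there were 1.04 apart. On the 6TCF arrays it stood at 10.93 and 10.99 at day 0, 12.19 and 12.39 at day 5 and 11.38 and 11.77 at day 10. The 6TCF day 5 rise was called (1.33 ± 0.26, adjusted p = 0.00257) and the day 10 value was not (0.61). Under SGCF the day 10 value of 0.98 was called, and not without SGCF day 0 replicate 2 (0.46) or day 10 replicate 1 (0.94), while without day 0 replicate 1 it was 1.49. At day 5 its 0.70 became a called 1.22 without SGCF day 0 replicate 1. Of all genes, 15.1% were called higher at day 5 of 6TCF and 12.8% at day 5 of SGCF. All 3 type VI chains were called higher at day 5 of 6TCF. Under SGCF 0 of the 3 were called at day 5 with all arrays or without SGCF day 0 replicate 2, and 3 without replicate 1. The 6 mesothelial markers on the array, from cells that line body cavities, summed to 9.69 to 9.74, 9.70 to 10.02 and 9.25 to 9.82 over the days of SGCF. Over the days of 6TCF they summed to 10.87 to 11.03, 12.32 and 12.70 to 12.85, and 5 of the 6 were called higher and 1 lower at each later day. Markers of Schwann and neural crest cells summed to 7.91 to 8.61 over the SGCF arrays and 8.35 to 9.49 over the 6TCF arrays. The part of these cells in the type VI values was not tested.

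The multiplexin chains were higher at day 10 under both combinations. Of all genes, 20.5% were called higher at day 10 of SGCF, 23.2% at day 10 of 6TCF and 11.5% at both. Col18a1, whose end fragment is endostatin, stood at 8.16 and 7.73 at day 0, 10.58 and 10.77 at day 5 and 11.25 and 11.0 at day 10 of SGCF. On the 6TCF arrays it stood at 7.52 and 7.70 at day 0, 11.36 and 11.47 at day 5 and 10.95 and 11.25 at day 10. All later arrays lay more than 2 log2 units above all day 0 arrays. The rises were 6.62-fold and 9.04-fold by days 5 and 10 of SGCF (2.73 ± 0.17 and 3.18 ± 0.17) and 14-fold and 11.2-fold of 6TCF (3.81 ± 0.17 and 3.49 ± 0.17), with adjusted p = 3.02e-07, 7.69e-08, 2.71e-08 and 3.24e-08. No other collagen gene rose as much in any comparison with day 0. Its other probe set gave 2.62, 3.31, 4.11 and 3.66.

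Col15a1, the related chain of capillary and muscle basement membrane zones, stood at 6.46 and 5.83 at day 0, 5.77 and 5.75 at day 5 and 7.24 and 7.19 at day 10 of SGCF. Under 6TCF its levels were 5.68 and 5.63 at day 0, 6.81 and 6.83 at day 5 and 6.43 and 7.16 at day 10. Under SGCF the day 5 arrays lay below, and the day 10 arrays above, the day 0 arrays. Under 6TCF it was already higher at day 5. The changes were -0.38, not called, and 1.08 ± 0.23 (adjusted p = 0.00274) under SGCF. Under 6TCF they were 1.17 ± 0.23 and 1.14 ± 0.23 (adjusted p = 0.00228 and 0.00157). Between day 10 and day 5 of SGCF the gene rose by 1.46 ± 0.23 (adjusted p = 0.000732).

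Among dim genes, Col26a1 rose under 6TCF. It encodes a small collagen first described in testis and ovary. It stood at 4.85 and 4.84 at day 0, 4.84 and 4.95 at day 5 and 5.12 and 5.27 at day 10 of SGCF, about at the low-signal limit or below it. On the 6TCF arrays it stood at 4.64 and 4.63 at day 0, 5.68 and 5.98 at day 5 and 6.82 and 6.76 at day 10. Its day 10 pair of 6TCF was above its day 5 pair, and both above every other array. Only its 6TCF day 5 and day 10 means (5.83 and 6.79) were above the low-signal limit. The gene was thus admitted to testing by the groups where it was high. The rise was 1.19 ± 0.13 by day 5 and 2.16 ± 0.13 by day 10 (adjusted p = 2.59e-05 and 1.5e-07), and its size depends on the constant added: 2.09 and 3.29 with 1, and 0.53 and 1.12 with 64. The SGCF day 10 value (0.35, adjusted p = 0.0487) lost its call in 10 of 12 fits that left out an array, at 0.28 to 0.43. Col13a1, a transmembrane collagen of neuromuscular junctions and other adhesion sites, stood at 5.53 and 4.76 at day 0, 5.68 and 5.63 at day 5 and 6.24 and 5.65 at day 10 of SGCF. It stood at 5.06 and 4.93 at day 0, 5.86 and 5.97 at day 5 and 6.18 and 6.29 at day 10 of 6TCF, where no later array overlapped with day 0. It was higher by 0.92 ± 0.23 and 1.24 ± 0.23 under 6TCF (adjusted p = 0.0114 and 0.00109). The day 5 call was lost without 6TCF day 0 replicate 2 (0.84) or day 5 replicate 2 (0.85). The SGCF day 10 value of 0.80 was not called without SGCF day 0 replicate 2 (0.42) or day 10 replicate 1 (0.52), and was 1.20 without day 0 replicate 1. Its day 5 value of 0.51 was called only without that array, at 0.91. With 1 or 64 as the constant, the 6TCF day 10 value was 1.84 or 0.63. Its day 0 means (5.15 under SGCF and 4.99 under 6TCF) were below the low-signal limit, so Col13a1 too was admitted by its later levels.

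Both short-chain genes on the array were called lower at every later time. Of all genes, 12.6% and 18.2% were called lower at days 5 and 10 of SGCF and 12.4% and 19.9% at those days of 6TCF. Col8a1, a chain of the lattices of the cornea's Descemet membrane and of vessel walls, stood at 9.97 and 10.55 at day 0, 7.37 and 7.40 at day 5 and 7.77 and 7.73 at day 10 of SGCF. On the 6TCF arrays it stood at 10.86 and 10.92 at day 0, 7.68 and 7.62 at day 5 and 6.76 and 6.62 at day 10. No day 5 or 10 array came within 2 log2 units of a day 0 array. It fell 7.31-fold by day 5 and 5.68-fold by day 10 of SGCF (-2.87 ± 0.16 and -2.51 ± 0.16, adjusted p = 1.7e-07 and 3.78e-07). Under 6TCF it fell 9.44-fold and 18.4-fold (-3.24 ± 0.16 and -4.20 ± 0.16, adjusted p = 7.3e-08 and 6.11e-09). As the mean of its probe sets the 6TCF changes were -2.60 and -3.18. Col10a1, the chain of hypertrophic cartilage, was dim (4.69 to 6.02) and changed by -0.95 and -0.92 under SGCF and -0.78 and -0.86 under 6TCF (SE 0.18, adjusted p = 0.00233, 0.00185, 0.00715 and 0.00247). It passed the low-signal limit only through its day 0 means (6.0 under SGCF and 5.68 under 6TCF). Its lower calls, included in the counts, are therefore those of a gene admitted by its day 0 level. Its 6TCF day 5 call was lost without 6TCF day 0 replicate 1 (-0.67) or day 5 replicate 2 (-0.57), and its 6TCF day 10 value was -1.46 with 1 as the constant.

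**Figure D4:**
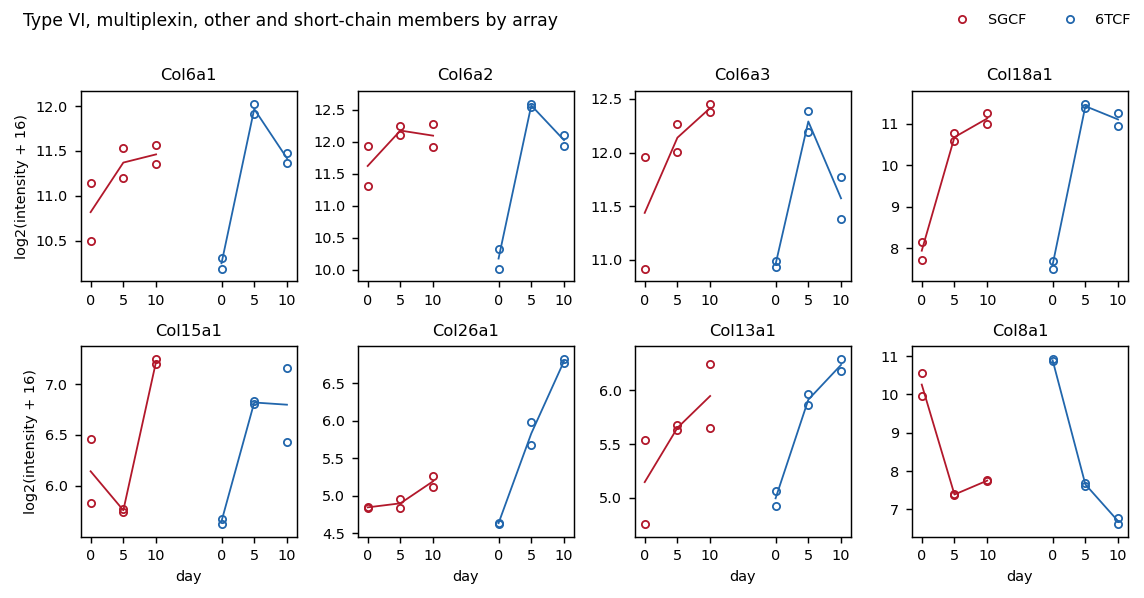
Levels of the type VI chains, Col18a1, Col15a1, Col26a1, Col13a1 and Col8a1, as log2(intensity + 16), on each array (open circles) at days 0, 5 and 10 of SGCF (red, left) and 6TCF (blue, right), with lines through the means and a vertical scale that differs between panels. Col6a1 and Col6a2 start lower under 6TCF, the 3 type VI chains are highest there at day 5, Col18a1 is high at days 5 and 10 of both, and Col8a1 is low there.

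The combinations already differed at day 0. Of the 33 collagen genes, 7 were lower and 1 was higher on the SGCF than on the 6TCF day 0 arrays, where 8.61% and 8.52% of all genes were (17.1% in either direction). Without SGCF day 0 replicate 1 the counts were 7 and 1, without replicate 2 they were 3 and 4, and without either 6TCF day 0 array 2 calls were left. The differences kept in every fit that left out an array were those of Col2a1 (-1.58 ± 0.14, adjusted p = 8.85e-05) and Col6a2 (1.45 ± 0.20, adjusted p = 0.001). Those of Col4a1 (-0.82), Col4a2 (-0.70), Col4a5 (-0.66), Col4a6 (-0.97), Col8a1 (-0.63) and Col11a1 (-0.87) were each lost without at least 1 SGCF day 0 array and without either 6TCF day 0 array. The values without the SGCF array were -0.51 for Col4a1, -0.30 for Col4a2, -0.68 for Col4a6 and -0.51 for Col11a1 (all without replicate 2). The Col4a2 value was -1.09 without replicate 1. The values were -0.41 for Col4a5 and -0.35 for Col8a1 (without replicate 1). Without a 6TCF day 0 array the 6 values ranged from -0.99 (Col4a6) to -0.61 (Col4a5 and Col8a1). Differences in the later changes therefore include these starting differences.

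By day 5 the change from day 0 was lower under SGCF than under 6TCF for 9 of 33 collagen genes and higher for 1, while 5.97% of all genes were called lower and 2.85% higher (8.82% in either direction). The median difference was -0.53, against 0.01 over all genes. The largest was in Col6a2 (-1.84 ± 0.28, adjusted p = 0.00154), followed by Col15a1 (-1.55 ± 0.32, adjusted p = 0.00954). Col26a1 (-1.14 ± 0.18) and Col2a1 (1.28 ± 0.20, the one higher under SGCF) also kept their calls in all 12 fits that left out an array (adjusted p = 0.00195 and 0.00184). The other calls each failed in at least 1 such fit. Col5a2 (-1.09) failed without 6TCF day 0 replicate 1 (-1.01). Col18a1 (-1.08) and Col14a1 (-1.25) failed in 3 fits each, at -1.03 to -0.98 and -1.13 to -1.01. Col3a1 (-0.80) and Col6a1 (-1.17) failed in 4 each, at -0.85 to -0.69 and -1.23 to -1.0, and Col4a1 (-0.96) in 10, at -1.0 to -0.65. The count of calls ranged from 5 without 6TCF day 0 replicate 1 to 16 (14 lower and 2 higher) without SGCF day 0 replicate 2, and was 9 lower and 1 higher without SGCF day 0 replicate 1. For Col15a1 the difference was -0.93 with 64 as the constant, for Col26a1 -1.98 with 1 and -0.51 with 64, and for Col3a1 -1.40 as the mean of its probe sets. Col26a1 was admitted to testing only by its 6TCF day 5 and day 10 means.

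By day 10, 5 collagen genes were called higher and 3 lower in the SGCF change than in the 6TCF change, with 12.1% and 13.3% of all genes (25.4% in either direction). The median difference of 0.01 was that of all genes. Col11a1 (2.77 ± 0.34), Col2a1 (1.97 ± 0.20) and Col8a1 (1.69 ± 0.23) fell less under SGCF, with adjusted p = 0.000222, 7.66e-05 and 0.00047. For Col8a1 the difference was 0.91 as the mean of its probe sets. Col26a1 (-1.81 ± 0.18) and Col6a2 (-1.38 ± 0.28) rose less under SGCF, with adjusted p = 6.75e-05 and 0.00519. Of these, Col26a1 was admitted to testing only by its 6TCF day 5 and day 10 means. These 5 calls held in all 12 fits that left out an array. Col5a1 (1.18) and Col16a1 (0.89) lost theirs in 4 fits each, at 1.13 to 1.19 and 0.82 to 0.90 (Col16a1 was 0.58, and called, without SGCF day 0 replicate 2), and Col14a1 (-1.16) without 6TCF day 0 replicate 2 (-0.99). For genes that were not called the intervals were wide. The 95% interval of the day 10 difference was -0.15 to 0.84 for Col1a1, -0.20 to 0.49 for Col1a2 and -0.83 to 0.21 for Col18a1. The counts were 9 higher and 3 lower without SGCF day 0 replicate 1, 5 and 5 without replicate 2, and 5 calls in all without 6TCF day 0 replicate 2. The SGCF and 6TCF means of Col2a1 were 6.73 and 8.31 at day 0 and 5.53 and 5.14 at day 10, near the low-signal limit. Those of Col6a2 were 11.62 and 10.18 at day 0 and 12.10 and 12.03 at day 10. The Col2a1 difference was 1.42 to 2.34 over the alternative settings. With 64 as the constant the Col11a1 difference was 2.07. That of Col26a1 was -2.64 with 1 and -0.98 with 64. As the mean of its probe sets that of Col5a1 was 0.81 and not called.

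**Figure D5:**
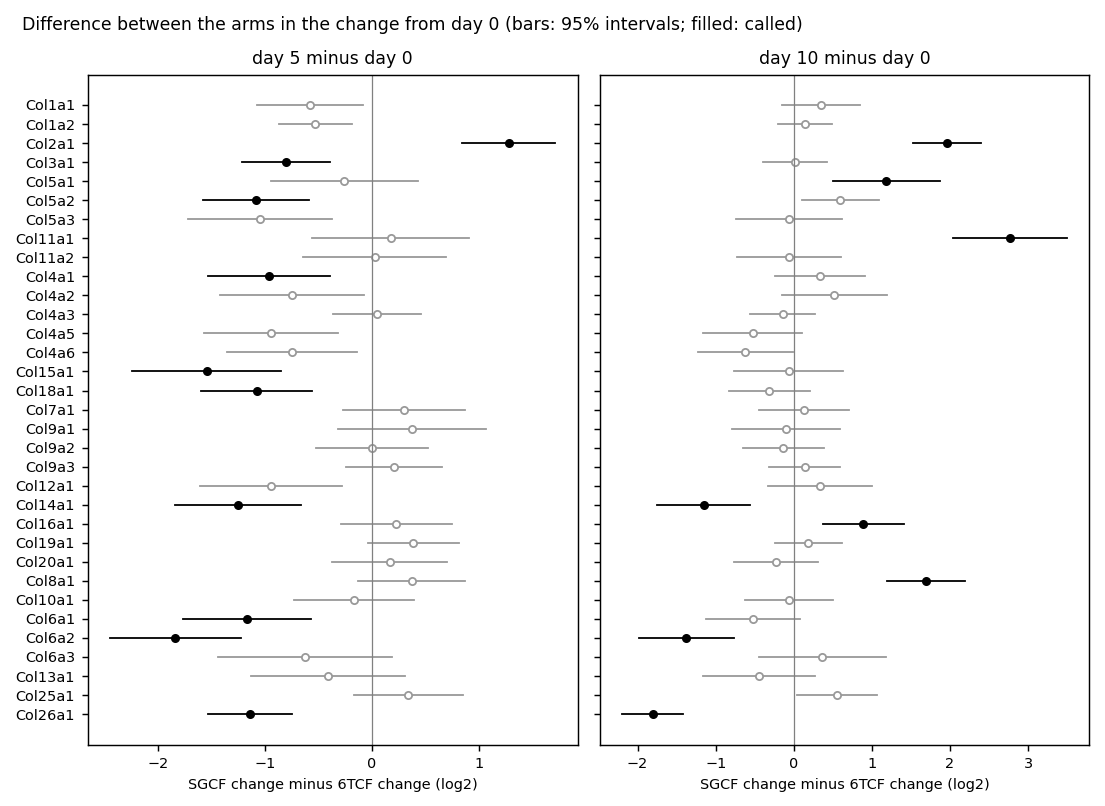
Difference between SGCF and 6TCF in the log2 change from day 0, for each of the 33 tested collagen genes by day 5 (left) and by day 10 (right), with 95% intervals as bars. Filled points passed the limma test. At day 5 most called genes lie left of 0, down to -1.84 for Col6a2, and at day 10 Col11a1, at 2.77, lies furthest right.

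Some changes had the same direction under both combinations. At day 5, 9 collagen genes were called lower under both (Col1a1, Col2a1, Col4a1, Col4a5, Col5a1, Col5a2, Col8a1, Col10a1 and Col11a1), 1 was higher under both (Col18a1) and 1 was called in opposite directions (Col3a1). Of all 10674 tested genes, 5.93% were called lower under both, 7.26% higher under both and 1% in opposite directions at day 5. Without either SGCF day 0 array, Col4a2 joined those lower under both (10 genes) and 0 were opposite. Without replicate 1, 5 were higher under both, Col18a1 with Col13a1 and the 3 type VI chains. At day 10, 9 were lower under both (Col1a1, Col2a1, Col4a1, Col4a2, Col4a5, Col7a1, Col8a1, Col10a1 and Col11a1). At that time 6 were higher under both (Col3a1, Col6a1, Col13a1, Col15a1, Col18a1 and Col26a1), and 0 were opposite, while 9.07%, 11.5% and 2.14% of all genes were lower under both, higher under both and opposite. The counts were 8 lower, 7 higher and 0 opposite without SGCF day 0 replicate 1. Without replicate 2 they were 11, 2 (Col15a1 and Col18a1) and 1 (Col14a1), so the shared rises of Col3a1, Col6a1, Col13a1 and Col26a1 were not called there. These shared calls hold genes admitted to testing by the groups where they were high. Col10a1 passed the limit only through its day 0 means, and Col13a1 and Col26a1 only through means of later days. Col3a1 and Col5a2, neighbours on chromosome 1, had different courses, since Col3a1 was higher and Col5a2 lower than at day 0 on both later days of 6TCF. The remaining tested members (Col4a3, Col9a1, Col9a2, Col20a1 and Col25a1, with Col11a2) were called in no comparison with day 0. Col9a1 (5.13 to 6.38 over the arrays) and Col9a2 (5.13 to 5.96) encode type IX chains of cartilage, Col20a1 (5.36 to 6.05) a FACIT chain, and Col25a1 (6.06 to 7.0) a transmembrane collagen of neurons. Another probe set of Col9a1, not used, changed by 0.83 and 0.60 by days 5 and 10 of SGCF. The one used changed by 0.36 and -0.30 there. Col4a3, a type IV chain of the kidney filter, lay at 4.76 to 5.31 over the arrays and passed the limit only through its SGCF day 5 mean (5.30). It is 1 of the 2 genes counted as lower at day 10 than at day 5 of SGCF, so that count holds a gene admitted by its day 5 level. On the probe set used, Col4a4, Col17a1 and Col22a1 had every group mean below the limit (4.59 to 5.36 over the arrays) and were not tested. Another probe set of Col22a1, of lower mean, had a highest group mean of 5.35, just above the limit.

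Genes that build and take apart collagen were counted from 3 lists chosen with earlier results of these data known. Of 15 tested genes for folding and modification, 0 rose and 6 fell by day 5 of SGCF, 4 rose and 4 fell by day 10 of SGCF, 2 and 6 by day 5 of 6TCF, and 2 and 4 by day 10 of 6TCF. In that order these were 0% and 40%, 26.7% and 26.7%, 13.3% and 40%, and 13.3% and 26.7% of the list, against 12.8% and 12.6%, 20.5% and 18.2%, 15.1% and 12.4%, and 23.2% and 19.9% of all genes. P4ha2, a catalytic subunit of prolyl 4-hydroxylase, fell by day 5 (-1.20 ± 0.14 under SGCF and -1.06 ± 0.14 under 6TCF) and was lower by day 10 (-1.09 ± 0.14 and -1.32 ± 0.14). Plod2, a lysyl hydroxylase that prepares crosslinks, was lower by day 10 (-0.62 ± 0.13 and -1.17 ± 0.13). Serpinh1, the collagen chaperone HSP47, fell by day 5 of SGCF (-0.85 ± 0.12), and P4ha1, another prolyl hydroxylase subunit, by day 5 of 6TCF (-1.11 ± 0.12). P3h3 (0.82 ± 0.15) and Plod1 (0.71 ± 0.17), a prolyl 3-hydroxylase family member and a lysyl hydroxylase, were higher by day 10 of SGCF. Ppib (0.69) and P4hb (0.53), a prolyl isomerase and the disulfide isomerase subunit of prolyl 4-hydroxylase, were higher by day 10 of 6TCF. The medians were -0.31, -0.05, -0.20 and -0.06 in the same order of comparisons.

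Of 12 tested genes for secretion and processing, 0 rose and 3 fell, 1 rose and 3 fell, 0 rose and 5 fell, and 0 rose and 6 fell in that order, or 0% and 25%, 8.33% and 25%, 0% and 41.7%, and 0% and 50% of the list beside the same shares of all genes. Tll1, a protease of the family that trims procollagen ends, fell by day 5 (-3.24 ± 0.18 under SGCF and -3.61 ± 0.18 under 6TCF) and was lower at day 10 (-3.08 ± 0.18 and -4.00 ± 0.18). Pcolce2, an enhancer of that trimming, was lower by day 10 (-1.61 ± 0.15 and -2.36 ± 0.15). Of 13 tested genes for receptors and turnover, 2 rose and 4 fell, 5 rose and 2 fell, 4 rose and 2 fell, and 4 rose and 4 fell, which is 15.4% and 30.8%, 38.5% and 15.4%, 30.8% and 15.4%, and 30.8% and 30.8%. Mmp2, a gelatinase, was higher by day 10 (2.20 ± 0.21 under SGCF and 1.29 ± 0.21 under 6TCF). Mmp13, a collagenase that cuts fibrillar collagen, fell by day 5 of SGCF (-1.17 ± 0.14) and was above day 0 by day 10 of SGCF (2.06 ± 0.14). Itgb1, the beta chain of the collagen-binding integrins, was lower by day 10 (-1.10 ± 0.11 and -1.49 ± 0.11). By day 10 the SGCF change was called higher than the 6TCF change in 5 of 15, 3 of 12 and 5 of 13 genes of the 3 lists and lower in 0 of each, with 12.1% of all genes called higher and 13.3% lower.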

How the data were processed

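RNA of 12 arrays (Affymetrix Mouse Genome 430A 2.0, 6 groups of 2) was analysed. The deposited values are linear intensities per probe set. RMA, limma and MAS5 are named, per the submitters' processing notes. Their versions and roles are not stated there. On each array 59.3% to 70.1% of the deposited intensity values shared 1 decimal part, so a constant had been applied per array, and array medians differed. Intensities plus 16 were quantile normalized and taken to log2, which shrinks the change of dim genes.

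Control probe sets (64 of 22690) were left out. Genes came from single-symbol probe sets in GEO's platform annotation, and all 36 collagen symbols matched the RefSeq table of GRCm38.p6 by Entrez ID. Each gene was represented by the probe set of highest mean. Genes whose highest group mean exceeded the 25th percentile (log2 5.27) were tested with limma 3.58.1 in R 4.3.3, with 6 group means, 6 residual and 5.53 prior degrees of freedom and Benjamini-Hochberg adjustment at 0.05 over 10674 genes. The same script was tested on simulated data. Precision is limited by having 2 arrays per group.

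Members and lists were chosen with earlier results of these data known. All 36 members were named, 20 of them with the value on every array and the others by range and counts. From each list, at most the 2 largest called rises and falls per comparison were named. Replicate numbers were not taken as pairs: deviations of same-numbered arrays correlated at -0.273 to 0.109. Alternatives were another constant, scaling, filter, probe set rule, baseline, block and set of arrays.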

Additional observations from a re-analysis of the deposited data

Results flagged for a closer look

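The change from day 0 differed between SGCF and 6TCF, by the limma test of the difference itself, in 18 cases among the collagen genes. Values are the log2 change under SGCF minus that under 6TCF. By day 5 the SGCF change was lower for Col6a2 (-1.84), Col15a1 (-1.55), Col14a1 (-1.25), Col6a1 (-1.17), Col26a1 (-1.14), Col5a2 (-1.09), Col18a1 (-1.08), Col4a1 (-0.96) and Col3a1 (-0.80), and higher for Col2a1 (1.28). By day 10 it was higher for Col11a1 (2.77), Col2a1 (1.97), Col8a1 (1.69), Col5a1 (1.18) and Col16a1 (0.89), and lower for Col26a1 (-1.81), Col6a2 (-1.38) and Col14a1 (-1.16). Col2a1, Col6a2, Col11a1 (-0.87), Col8a1 (-0.63) and Col4a1 (-0.82) were also called different at day 0, the last 3 of them not in every fit that left out an array. Col26a1 was admitted to testing only by its 6TCF day 5 and day 10 means. Array brightness differed between the combinations, so a processing batch and the treatment cannot be told apart.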

How the results depend on the processing

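Of 121 collagen calls over 9 comparisons, 72 held in every one of the 12 fits that left out an array and in every other alternative that tested the gene. No collagen change that was called reversed its sign. With only the arrays of the groups compared in the fit, 12 collagen genes were called by day 10 of SGCF, against 19 with all arrays, and 3 between the combinations at day 0, against 8. With a constant of 1 the day 0 count was 5. The fits of only the groups compared have fewer degrees of freedom and take the spread from those groups alone. The cause of these lower counts was not tested. Calls by day 10 of SGCF that were lost in such a fit included Col3a1, Col4a2, Col4a6, Col6a1, Col6a3, Col13a1 and Col26a1. Leaving out 1 array at a time gave 3 to 10 calls between days 10 and 5 of 6TCF (7 with all arrays), 2 to 8 at day 0, 5 to 16 for the difference between combinations by day 5 (10 with all arrays) and 5 to 12 by day 10 (8 with all arrays). The replicate block, with numbers that share no stated origin, gave 17, 18 and 10 calls in the SGCF comparisons, 19, 20 and 7 in those of 6TCF, and 7, 11 and 8 between the combinations. With the block 115 of the 121 calls held and 2 were gained. Dim genes, such as Col26a1 and Col2a1 at day 10 of 6TCF, are those whose size depends most on the constant.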
